A study of Mus musculus with 6 samples.

Results

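Satellite peaks are T-bet ChIP-seq peaks that appeared in 1 wild-type (WT) library only and lay close to a site that both WT libraries held. They were chosen from the peak lists by position alone. A shared site was a WT replicate 1 peak that overlapped a WT replicate 2 peak by at least 1 bp and no peak of the T-bet knockout (KO) library. A satellite was a replicate 1 peak that overlapped neither a replicate 2 peak nor a KO peak and had a gap of 25 kb or less, edge to edge, to a shared site. This rule gave 743 satellites beside 726 shared sites. The satellites were 743 of the 7996 replicate 1 peaks, and of 8925 peaks in the 3 lists together. They made up 10.3% of the 7226 replicate 1 peaks that met neither other list (95% interval 9.59 to 11.0%), which are called replicate 1-only peaks here.

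T-bet, a transcription factor of the T-box family encoded by Tbx21, directs T helper 1 differentiation and is also found in a subset of regulatory T cells. Transcription factors commonly bind several elements of one locus, such as a promoter and a set of enhancers spread over a long stretch of DNA. In ChIP-seq, each such element can give a peak of its own, and a weak element can pass the peak caller's threshold in one library and miss it in another.

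The cells were induced regulatory T (iTreg) cells of Balb/c mice aged 4 to 10 weeks. Naive CD4+ T cells from spleen and lymph nodes were stimulated on plates with anti-CD3 and anti-CD28 antibodies at 10 µg/ml each and held for 7 days with TGF-β1 at 33 ng/ml and IL-2 at 20 ng/ml. The groups were WT, with 2 ChIP libraries, and T-bet KO, with 1 ChIP library. Culture and precipitation with a rabbit serum against T-bet were described alike for both, and the KO allele was not described. Inputs of 3 further libraries were not analysed here. The replicate 1 list was far longer than the others: it held 7996 peaks, against 851 in replicate 2 and 78 in the KO library. Of all replicate 1 peaks, 9.50% overlapped a replicate 2 peak and 0.550% a KO peak. In their deposited names, the KO and replicate 2 lists open with a shared number that replicate 1 lacks. What it stands for is not stated, so differences of replicate 1 from the other lists cannot be told apart from whatever it marks. Depth per library is unknown, so a missing peak in the shorter lists does not show an unbound site.

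Replicate 1-only peaks were most dense next to shared sites and thinned out steadily with distance. By peak midpoint, their density was 62.4 peaks per Mb (95% Poisson interval 49.8 to 77.1) within 1 kb of a shared site and 60.1 (47.6 to 74.9) from 1 to 2 kb. It was 36.3 from 2 to 5 kb, 24.4 from 5 to 10 kb and 17.2 (15.2 to 19.2) from 10 to 25 kb. Beyond the limit the density went on falling, to 10.6 (9.41 to 12.0) from 25 to 50 kb and 7.93 from 50 to 100 kb, and was 2.30 (2.24 to 2.36) beyond 100 kb. The zones within 25 kb covered 1.13% of chromosomes 1 to 19 and X and held 10.3% of the replicate 1-only peaks there. Their density in the zones was 24.9 peaks per Mb, 10.9-fold (10.0 to 11.7) that beyond 100 kb. These intervals cover counting error over peaks taken as independent, which neighbouring peaks of 1 library are not. No test across samples was possible for any value given here.

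Crowding of this kind was also present away from shared sites. Replicate 1-only peaks among the 10% of replicate 1 peaks with the highest scores (at least 263) are called strong here and numbered 421. Of these, 318 lay over 100 kb from any shared site. Around those 318, other replicate 1-only peaks reached 105 per Mb (81.1 to 134) within 1 kb, more than beside shared sites. The rule lowers the count beside shared sites, since a neighbouring peak that meets the same replicate 2 peak counts as shared. Such a replicate 2 peak was common to 61 shared sites and another shared site, so the 2 densities within 1 kb are not on equal terms. From 1 to 2 kb the order was the opposite, with 34.6 per Mb (21.4 to 52.9) beside the strong peaks, though the intervals overlap. Within 25 kb the density was 20.4 per Mb, 7.96-fold (7.05 to 8.94) that beyond 100 kb of them. That distant area includes the shared sites and held 2.56 per Mb, against 2.30 beyond 100 kb of shared sites, so the 2 ratios have unlike baselines. The centres also differ in strength, since all 318 scored at least 263 and the median replicate 1 score of shared sites was 260.2. The difference between the 2 kinds of centre was not tested.

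**Figure D1:**
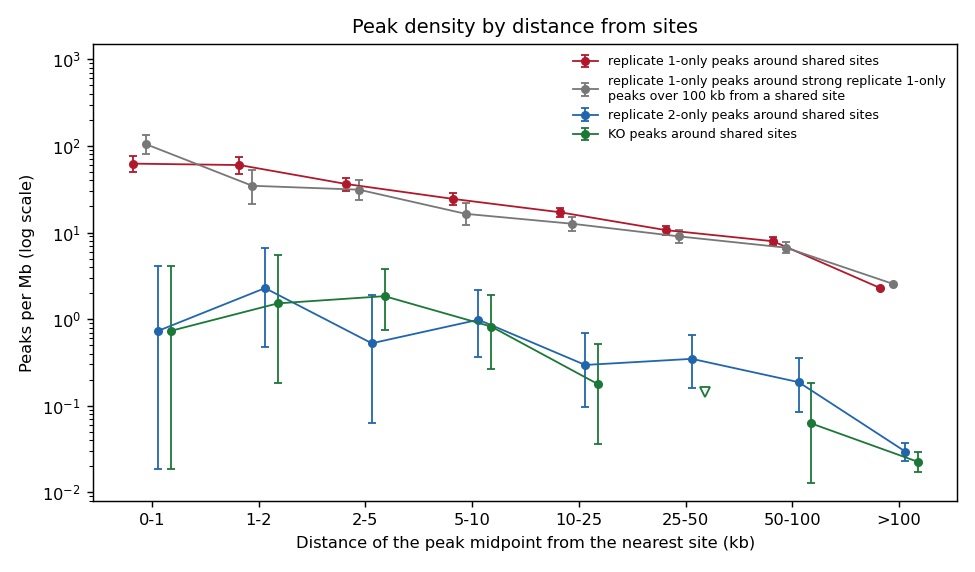
Density of peaks (peaks per Mb of chromosome, log scale) against the distance of the peak midpoint from the nearest site, in 8 distance bins; points are densities, bars are 95% Poisson intervals, and the open triangle is the upper limit where no KO peak was found. Replicate 1-only peaks fall from 62.4 per Mb within 1 kb of shared sites to 2.30 beyond 100 kb, and those around strong replicate 1-only peaks from 105 to 2.56, while replicate 2-only and KO peaks, at far lower densities, are also denser within 10 kb than beyond 100 kb.

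The median gap between a satellite and its nearest shared site was 6.80 kb, with a smallest gap of 11 bp. Within 1 kb lay 91 satellites, or 12.2%, within 5 kb 308, or 41.5%, and within 10 kb 451, or 60.7%. Satellites lay on either side of the sites, 393 of 743 (52.9%, 49.2 to 56.5%) at lower coordinates. Many also lay near each other: 195 satellites, or 26.2%, had another satellite within 1 kb, and 376, or 50.6%, within 5 kb.

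Satellites scored far below the shared sites and slightly above the remaining replicate 1-only peaks. The authors deposited 1 score per peak from their peak caller, and it was compared within the replicate 1 list only. Its median was 109.6 for satellites (95% interval 104 to 115), 102 (101 to 104) for the remaining 6483 replicate 1-only peaks and 260.2 (244 to 276) for shared sites. The satellites' scores ran from 70.2 to 666, with quartiles of 86.4 and 172. Median width was 193 bp for satellites (182 to 202), 168 bp (166 to 169) for the remaining peaks and 315 bp for shared sites. Score and width went together across the satellites (Spearman's rho 0.82, n = 743 peaks of 1 library).

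Satellites were over-represented among replicate 1-only peaks with scores of at least 100, 200 or 300, but not among the very highest. A score of at least 100 was reached by 431 satellites, or 58.0%, against 53.8% of all replicate 1-only peaks. At least 200 was reached by 136, or 18.3% (15.6 to 21.3%), against 12.5%, and at least 300 by 45, or 6.06%, against 4.00%. At least 500 was reached by 5, or 0.673%, with an interval (0.219 to 1.56%) that includes the 1.05% of all replicate 1-only peaks. Cut into 10 equal groups by score, the replicate 1-only peaks were satellites in 7.89% to 11.3% of cases in the 9 lower groups. In the highest group, with scores of 218 and above, the share was 16.3% (13.7 to 19.2%). Of the 50 highest replicate 1-only peaks, 2 were satellites, where 10.3% of all replicate 1-only peaks were. The remaining replicate 1-only peaks reached a score of 3100 and a width of 38439 bp, against 666 and 654 bp for satellites.

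Median scores differed little with the gap. The share of high scores was largest in the bin within 0.5 kb, which held 51 satellites, and showed no steady fall from there to 10 kb. The median score was 99.9 (86.2 to 153) for the 51 satellites within 0.5 kb of a shared site, 120.03 (90.4 to 150.04) for the 40 from 0.5 to 1 kb and 118 for the 84 from 1 to 2 kb. It was 116 from 2 to 5 kb, 114 from 5 to 10 kb and 105 (99.9 to 113) for the 292 from 10 to 25 kb. The replicate 1-only peaks just beyond the limit, from 25 to 50 kb, had a median of 107 and a median width of 193 bp, both close to the values for satellites. A score of at least 200 was reached by 15 of the 51 satellites within 0.5 kb, or 29.4%, by 15.0% from 0.5 to 1 kb and by 17.3% to 21.4% in the bins from 1 to 10 kb. From 10 to 25 kb the share was 15.1%, and among replicate 1-only peaks farther out it was 14.2% from 25 to 50 kb and 13.4% from 50 to 100 kb. Across the satellites, score and gap had a Spearman's rho of -0.04, and the score of a satellite and of its shared site 0.08. These correlations describe 743 peaks that share 1 library.

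**Figure D2:**
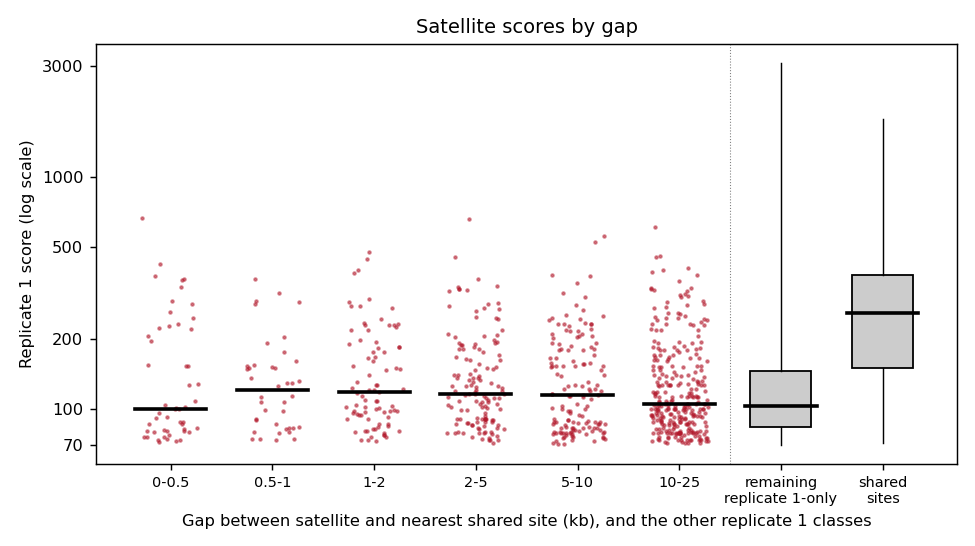
Replicate 1 score (log scale) of each satellite by its gap to the nearest shared site (kb), with the median of each gap bin as a black line; on the right, boxes show the quartiles, lines the lowest and highest scores and black bars the medians of the remaining replicate 1-only peaks and the shared sites. The bin medians lie between 99.9 and 120.03, near the 102 of the remaining peaks and below the 260.2 of the shared sites.

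Satellites were spread over a large share of the shared sites. Each satellite was assigned to its nearest site, and 381 of the 726 sites, or 52.5% (48.8 to 56.2%), had at least 1. Exactly 1 satellite was found at 195 sites, 2 at 102 and 3 at 39, and 28 sites had 5 or more. The most at any site was 8. Satellites lay on both sides of 75 sites.

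Sites with satellites had higher replicate 1 scores but not higher replicate 2 scores. The median replicate 1 score was 277 (257 to 308) at the 381 sites with a satellite and 236 (218 to 263) at the 345 without. In replicate 2 the medians were 111 (106 to 119) and 112 (105 to 123). Ranked by replicate 1 score and cut into 4 equal groups, 50.3%, 45.6%, 50.8% and 63.2% (55.7 to 70.2%) of the sites had a satellite, from the lowest to the highest group. Satellites per site were 0.906, 0.786, 1.06 and 1.35 in the same order. Ranked by replicate 2 score, the shares were 50.3%, 54.9%, 55.2% and 49.5% (42.0 to 56.9%), with 1.01, 1.03, 1.10 and 0.956 satellites per site. The difference between the rankings was not tested.

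**Figure D3:**
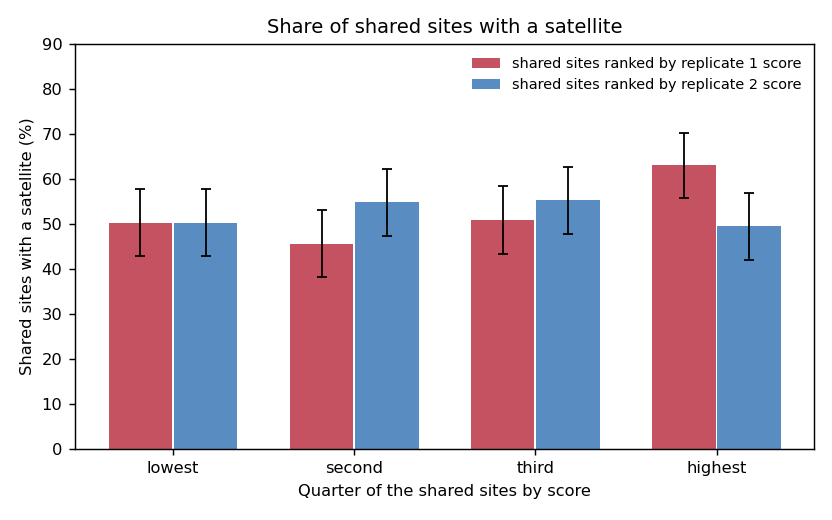
Share of shared sites (%) that had at least 1 satellite, with the 726 sites cut into 4 groups by replicate 1 score or by replicate 2 score; bars are shares and error bars exact 95% binomial intervals. The share is 63.2% in the highest group by replicate 1 score and 49.5% in the highest group by replicate 2 score.

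Shared sites that had another shared site within 50 kb held 1.01 satellites per site, and isolated ones 1.03. At least 1 satellite was found at 156 of the 310 clustered sites, or 50.3% (44.6 to 56.0%), and at 225 of the 416 isolated ones, or 54.1% (49.2 to 59.0%). Zones of clustered sites overlap, so per Mb the order differed: 35.6 replicate 1-only peaks per Mb (31.8 to 39.8) within 25 kb of clustered sites and 20.5 (18.6 to 22.5) around isolated ones.

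Few satellites lay directly beside a replicate 2 peak. The nearest replicate 2 peak was within 100 bp for 16 satellites, within 500 bp for 59, or 7.94%, and within 1 kb for 99, or 13.3%. Of the 59, 56 lay beside the replicate 2 peak that overlapped their own shared site. Replicate 2 peaks had a median width of 353 bp. The median gap to a replicate 2 peak was 6.27 kb over all satellites, so most had no replicate 2 peak in their immediate surroundings. For 23 satellites the nearest replicate 2 peak belonged to no shared site, and for the other 720 it belonged to a shared site. By the rule every shared site overlaps a replicate 2 peak, so these gaps largely restate the gaps to shared sites. They do not show whether replicate 2 held weaker signal below the peak caller's threshold.

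The same rule was applied with the replicates exchanged, to peaks that replicate 2 alone held. Replicate 2 had 110 peaks that met neither replicate 1 nor the KO list, and 17 of them, or 15.5% (9.27 to 23.6%), lay within 25 kb of a shared site. Their density there was 0.572 per Mb, against 0.0296 beyond 100 kb, a ratio of 19.3 (10.7 to 33.1). Their median gap was 6947 bp (3321 to 13615 bp), a wide interval that includes the median of the replicate 1 satellites. The rule confines both to 25 kb. Their median replicate 2 score was 108 (90.3 to 124), against 85.6 (79.6 to 88.6) for the other 93 replicate 2-only peaks. The highest, on chromosome 8 from 35820048 to 35820492, scored 199 and lay 1059 bp from a shared site with a replicate 2 score of 255. The next, on chromosome 16 from 84717998 to 84718565, scored 143 beside a site of 113. A KO peak with a score of 99.75 in the KO library lay just before it, from 84717410 to 84717843. Of the 17, 12 had a replicate 1 satellite within 25 kb and 2 within 1 kb. Both WT lists thus held peaks of their own near shared sites, which by the rule do not overlap between the lists.

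KO peaks, from cells that lack T-bet, also gathered near shared sites. Of the 78 KO peaks, 18, or 23.1% (14.3 to 34.0%), lay within 25 kb of a shared site, a density of 0.606 per Mb against 0.0225 beyond 100 kb and a ratio of 26.9 (14.9 to 46.5). Joined within 50 kb, the 18 formed 10 regions. A WT peak was met by 16 of the 18, and of the 22 KO peaks that met no WT peak, 2, or 9.09% (1.12 to 29.2%), lay within 25 kb. High density near shared sites was therefore also seen for peaks of the library without T-bet. Most KO peaks met a WT peak, near shared sites as in the whole list, where 22 of 78 did not. For the 22 that met none, the interval reaches down to the 1.13% of the chromosomes that the zones cover. It also includes the 23.1% of all KO peaks, so these 22 cannot be told apart from KO peaks in general.

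Satellites near KO peaks were few. A KO peak lay within 25 kb of 21 satellites, or 2.83% (1.76 to 4.29%), against 0.526% of all replicate 1-only peaks and 0.262% (0.153 to 0.420%) of those that were no satellites. For the shared sites, whose neighbourhoods the satellites occupy by the rule, the share was 2.75%. The 21 lay beside 8 KO peaks, and 6 of them beside 1 KO peak on chromosome 17 from 35335561 to 35336238, which scored 140.1 in the KO library. A further 4 lay on chromosome 10, 5 on chromosome 11 and 3 on chromosome 16; these and the next were singled out with their values known. The satellite closest to a KO peak lay on chromosome 11 from 87256330 to 87256495, had a replicate 1 score of 99.6, and was 122 bp from a KO peak with a score of 93.8 and 96 bp from a replicate 2 peak. Without replicate 1 peaks within 25 kb of a KO peak, 718 satellites were left and the density ratio was 10.7.

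The 10 highest-scoring satellites all scored above the shared site next to them, which 121 of the 743 satellites (16.3%, 13.7 to 19.1%) did. Their choice by score favours this outcome, since the median replicate 1 score of shared sites was 260.2. None had a peak in replicate 2 or the KO library by the rule. On the 9 of 10 whose chromosome held a KO peak, the nearest was 1.17 to 54.9 Mb away. The highest lay on chromosome 6 from 127189880 to 127190455 and scored 666. Its shared site began 340 bp further on, at 127190796, and scored 159 in replicate 1 and 70.5 in replicate 2, near the lowest score of that list. The replicate 2 peak thus lay on the weaker of these neighbouring replicate 1 peaks.

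The second, on chromosome 17 from 5798323 to 5798806, scored 659. Its shared site, from 5803272 to 5803725, scored 448 in replicate 1 and 109.7 in replicate 2 and had 5 satellites in all. The third, on chromosome 6 from 48697486 to 48698022, scored 609 at 14.2 kb from a site with scores of 521 and 132. In both places the satellite and the site were strong peaks of the replicate 1 list.

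The fourth was of another kind. It lay on chromosome 6 from 99000353 to 99001006, was the widest of the satellites at 654 bp, and scored 557, while its shared site 5.93 kb away scored 82.2 in replicate 1 and 103 in replicate 2. The fifth, on chromosome 4 from 155404798 to 155405158, scored 526 beside a site of 133 in replicate 1 and 111 in replicate 2. Weak sites also stood beside the last of the 10. The ninth, on chromosome 15 from 61273209 to 61273677, scored 453, and its site scored 80.8 and 83.7 in replicates 1 and 2. The lowest of the 10, on chromosome 1 from 140040943 to 140041376, scored 443, and its site scored 87.8 and 89.7.

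The remaining 3 of the 10 had sites of middling score. These were on chromosome 13 from 35221163 to 35221583 (score 476, site 270.4), on chromosome 9 from 57837011 to 57837426 (455, site 362) and on chromosome 15 from 62001220 to 62001741 (454, site 242). Across all 121 satellites that scored above their site, the sites had median scores of 109.8 in replicate 1 and 91.0 in replicate 2. The sites of the other 622 satellites had medians of 334 and 118. The low replicate 1 median follows from the choice of these pairs. The replicate 2 score did not enter the choice but belongs to the same sites, so its median cannot be read apart from it. Their median gap was 6335 bp, against 6884 bp for the others.

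The 5 satellites closest to a shared site had gaps of 11 to 33 bp, and 4 of them scored below the site. On chromosome 9 these were from 50540917 to 50541090 (score 77.4, site 300.03), from 57819650 to 57819757 (75.8, site 362) and from 56312802 to 56313053 (153, site 259). On chromosome 2 the satellite from 139926631 to 139926774 scored 80.1 beside a site of 179. The exception was on chromosome 14 from 61675749 to 61676093, where the satellite scored 336 and the site 126. Such pairs may be counted as 1 region. When all replicate 1 peaks within 500 bp of each other were merged first, 612 satellites were left. This also joins satellites to each other: 51 satellites had a shared site within 500 bp, and 155 had another satellite.

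At the limit of the rule, the members just inside and the peaks just outside had similar scores. The satellites with the largest gaps lay on chromosome 7 from 108704148 (gap 24954 bp, score 107), on chromosome 10 from 92833254 (24937 bp, score 73.6) and on chromosome 9 from 45984820 (24792 bp, score 161). The nearest peaks that were left out lay on chromosome 2 from 30892521 (25080 bp, score 155) and from 127918020 (25205 bp, score 80.8), and on chromosome 3 from 135328772 (25250 bp, score 144).

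Satellites and shared sites formed runs when neighbours with gaps of 25 kb or less were joined. There were 568 runs, of which 333 held a satellite and 147 held more satellites than shared sites. The runs with a satellite had a median span of 15.5 kb, and the longest run spanned 80.6 kb. A single satellite was held by 158 runs, 135 of which had only 1 shared site beside it. At the other end, 37 runs with 5 or more satellites held 231 satellites, or 31.1%. Leaving those runs out lowered the density ratio from 10.9 to 8.06, a direction set by choosing runs for their many satellites.

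The 5 runs with most satellites are described next; 3 runs tied at 8 satellites, and the one on chromosome 13 was taken as the fifth for its higher sum of satellite scores. The first lay on chromosome 1 from 140030900 to 140082794. It held 11 satellites and 2 shared sites over 51.9 kb. The satellites scored 75.7 to 443, with a median of 91.0, and the sites 87.8 and 272.5. The strongest peak of the run was the satellite of score 443 named above, at 1799 bp from the weaker site. Of the 11, 7 lay between the sites. The replicate 2 peaks at these sites scored 89.7 and 72.8.

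On chromosome 8, from 129350228 to 129419253, 9 satellites accompanied 5 shared sites over 69.0 kb. Satellite scores were 72.5 to 362, with a median of 153, and site scores 130.3 to 428. A group of 3 satellites with scores of 362, 136 and 107 lay side by side, 3946, 3490 and 2176 bp from the site that began at 129375922. The replicate 2 peaks at the 5 sites scored 79.8 to 240.1.

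The run on chromosome 17 from 35331326 to 35378724 was the only one of these 5 with a KO peak within 25 kb. Its 9 satellites scored 71.2 to 403, and its 4 shared sites 101 to 297. The shared sites were covered by only 2 replicate 2 peaks, each of which spanned a pair of adjacent replicate 1 peaks. All 9 satellites lay outside the stretch between the sites. The strongest, from 35337316 to 35337729 with a score of 403, was 1077 bp from the KO peak and 1109 bp from a replicate 2 peak that overlapped the KO peak and scored 226. Replicate 1 had no peak of its own at that position, where the other libraries both did.

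On chromosome 4 from 32438446 to 32512918, 9 satellites with scores of 74.6 to 283 lay among 4 shared sites with scores of 153 to 439. None of them scored above its nearest site, and 6 lay between sites. The chromosome held no KO peak. On chromosome 13 from 45922559 to 45980679, 8 satellites with scores of 83.0 to 246 lay beside sites of 222 and 529, whose replicate 2 scores were 114 and 389. There, 4 satellites lay between the sites and 4 outside, and 1 scored above its site.

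**Figure D4:**
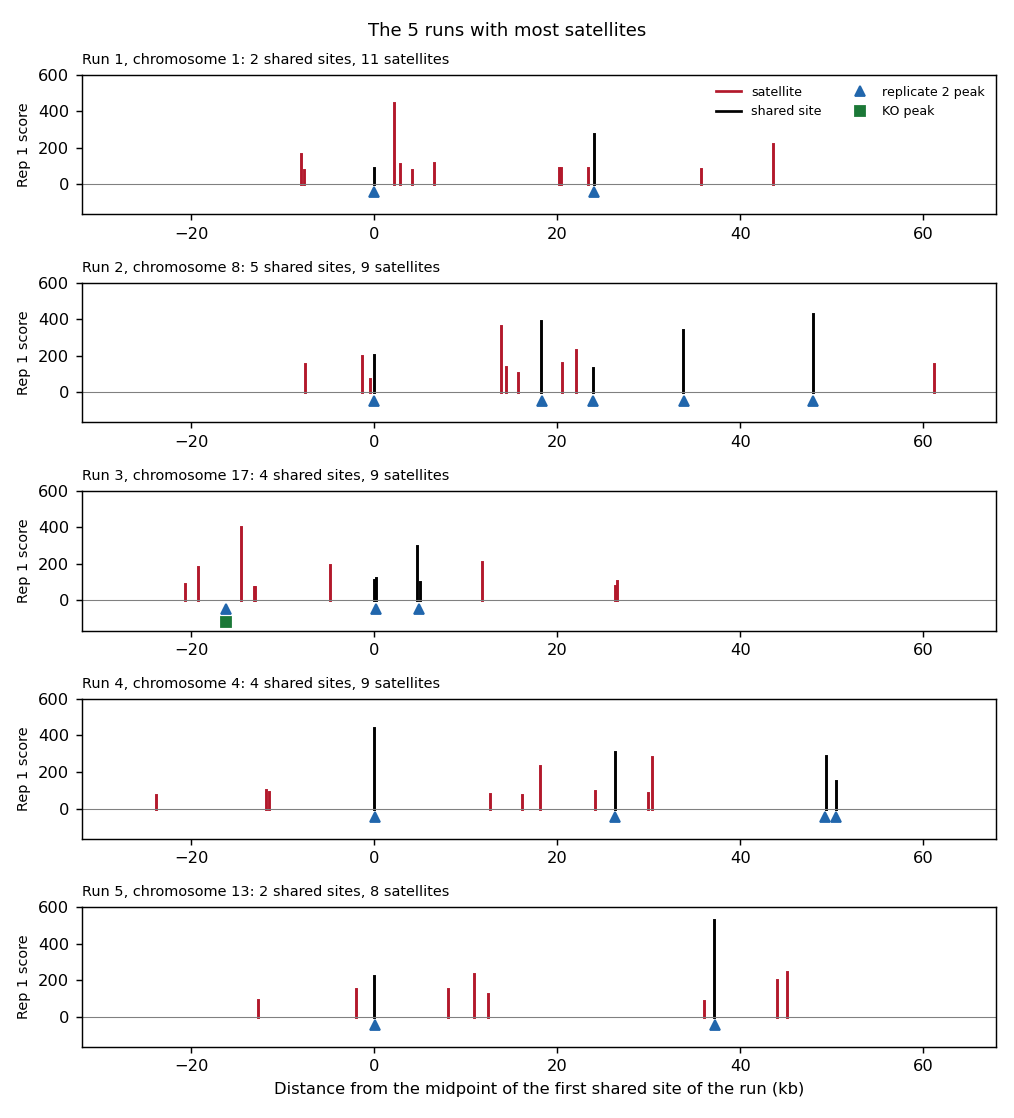
Map of the 5 runs with most satellites (ties at 8 settled by the sum of satellite scores): each vertical line is a replicate 1 peak at its distance (kb) from the midpoint of the run's first shared site, with its replicate 1 score as height; triangles mark replicate 2 peaks and the square a KO peak. The rule places a replicate 2 peak under each shared site and under no satellite. The run on chromosome 17 alone has a KO peak, at -16.2 kb, and a further replicate 2 peak there.

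By the rule, satellites can lie only where shared sites do, so their counts per chromosome are a description. There were 68 on chromosome 1, 60 on chromosome 2 and 59 each on chromosomes 10 and 11. Chromosome 7 had 19 satellites at 38 shared sites, the fewest per site of the autosomes. The others ranged from 0.577 per site on chromosome 19 to 1.34 on chromosome 9 and 1.37 on chromosome 11. The X chromosome, with 6 shared sites, held 1 satellite. Chromosomes Y and M held no shared site and so could hold no satellite.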

How the data were processed

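The 3 peak lists were used, 1 for each ChIP library, and samples were grouped by their titles. Per the submitters' processing notes, the tools were CASAVA, Bowtie2 and MACS 1.4 and the build was mm9. Settings and controls were not described in the sources used here. The deposited names of all 3 lists share a QC label whose meaning is not stated. A list has chromosome, start, end, a peak name and a score, which the authors deposited without stating its scale. Its lowest value was 70.13 in the replicate 1 list, 70.1 in the replicate 2 list and 70.35 in the KO list. Starts were moved by 1 so that positions count from 1. Overlaps, gaps, runs and densities were computed with Python 3.11.15, numpy 2.4.6 and scipy 1.17.1, and the functions were tested on simulated data. Chromosome lengths of mm9 came from GenomeInfoDb 1.38.1 (R 4.3.3). They include assembly gaps, which lowers the densities far from sites, and 6 replicate 1-only peaks on Y and M were left out of densities. Shares carry exact (Clopper-Pearson) 95% binomial intervals, densities exact Poisson intervals, ratios exact conditional intervals, and medians order-statistic intervals. All cover counting error only.

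The rule for satellites, and the lists and alternatives, were chosen with earlier results of these data known. Named were the 10 highest-scoring satellites, the 5 with the smallest gap, the 3 on each side of the limit and the 5 runs with most satellites. Genes and sequences were not used here, because the reference tables at hand are of build GRCm38.p6 and positions were not converted. The labels do not say whether the WT replicates came from separate mice or cultures.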

Additional observations from a re-analysis of the deposited data

How the results depend on the processing

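Of 66 values under 11 alternatives, 3 of which were chosen after seeing the data, 33 stayed within the interval of the main value (for the number of satellites, within 1.5 times). Matching by midpoints within 250 bp and extending KO peaks by 1 kb moved none, nor did leaving out peaks within 25 kb of a KO peak, an added alternative. With a gap limit of 10 kb there were 451 satellites, 6.24% of replicate 1-only peaks, at 38.2% of shared sites, with a density ratio of 15.3. With 50 kb the shares were 14.1% and 62.8% and the ratio 7.96. A score of at least 100 in all lists left 336 satellites (8.10%) at 45.0% of sites, with a ratio of 14.0, a median score of 169 and a width of 262 bp. With replicate 1 peaks within 500 bp merged, the share was 9.11%, the ratio 9.49, the median score 116 and the width 209 bp. With replicate 2 peaks extended by 1 kb, the share was 9.05%, the ratio 9.42 and the share of sites 48.3%. With the replicates swapped there were 17 satellites (15.5%) at 2.45% of sites, with a ratio of 19.3 and a width of 322 bp. With only as many of the highest replicate 1 peaks as replicate 2 holds, there were 53 satellites (11.6%) at 12.0% of sites, with a ratio of 21.9, a median score of 306 and a width of 363 bp. Without the runs of 5 or more satellites, the share was 7.32% and the ratio 8.06, both lowered by that choice. The density near shared sites exceeded that beyond 100 kb under all 11. The cut of replicate 1 and the removal of runs were the other added alternatives.

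Leaving out either WT replicate gives no value, since the rule needs both. No paired analysis was possible because the values come from no test and the KO group has 1 library. The mm9 gene and motif results foreseen were not run. Depth is unknown for all 3 libraries and limits every comparison of the lists.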

Other observations

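Several runs not described above had many satellites around a single shared site; they were chosen after their values were seen, and those on chromosomes 2 and 16 tie at 8 satellites with a run described above. On chromosome 2 from 127135948 to 127162046, 8 satellites with scores of 90.1 to 171 lay beside 1 site with a score of 679.5. A peak that only replicate 2 held, from 127164531 to 127164990 with a replicate 2 score of 78.0, lay just past the end of this run. On chromosome 16 from 49772895 to 49807195, 8 satellites with scores of 75.3 to 232 lay beside 1 site of 319. On chromosome 9 from 45957192 to 45985064, 7 satellites scored 78.7 to 235 beside a site of 781, and on chromosome 11 from 61443355 to 61474697, 7 scored 71.5 to 158 beside a site of 336. None of these satellites scored above its site. On chromosome 9 from 57816251 to 57837426, 6 satellites had a median score of 265 beside a site of 362, and 1 of them scored above it. No KO peak lay within 25 kb of any of these runs.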
